A study of Arabidopsis thaliana with 24 samples.

Results

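QQS and APL4, a pair of genes tied to leaf starch, were followed in Arabidopsis thaliana leaves of the wild type (WT) and of a line with a disrupted acyl-CoA oxidase gene, in a time course with the auxin herbicide 2,4-D. They are 2 of the 13350 genes named on the arrays and 2 of the 22746 probe sets tested, 1 probe set each, a probe set being the group of short probes that reports 1 transcript. The members were taken as the probe sets that the platform annotation assigns to these symbols. QQS (locus AT3G30720) was higher in the mutant line at all 3 times and moved little after the herbicide. APL4 (locus AT2G21590) lay near the bottom of the measured range in both genotypes at 0 h and 1 h, and was highest in the mutant line at 72 h. Both were chosen by values measured in these data: QQS by its difference between genotypes at 0 h and 1 h, and APL4 by that at 72 h. Those values, and every other comparison that uses the same arrays, are given below as description without a test. A p-value is given for a member only where neither group of the comparison had been used to pick it.

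The 24 Affymetrix ATH1 arrays measured total RNA in 6 groups: WT and ACX at 0 h with 6 arrays each, and each genotype at 1 h and at 72 h with 3 arrays. ACX is acx1-2, an insertion line in the accession Col-0, which is also the WT; acyl-CoA oxidase opens the beta-oxidation of fatty acids in peroxisomes. Only 1 mutant line was used, so the line and the gene cannot be told apart. The plants were grown in soil with 16 h of light at 22 °C and 8 h of dark at 20 °C. The spray held 23 mM 2,4-D with 1% dimethyl sulfoxide and 1% ethanol, and every replicate pooled leaves from at least 5 plants. Per the labels, control plants received the solvents alone. It is not given here whether the arrays labelled 0 h are those controls, nor when they were collected. Time of day, solvent and herbicide cannot be told apart in a change against 0 h. The probe set for ACX1 itself was not analysed here. Values are log2 expression levels, on which a difference of 1 is 2-fold. Array medians lay between 5.95 and 6.17 and lower quartiles between 4.42 and 4.61, and arrays of a group correlated at 0.974 to 0.997 over all probe sets. The marker of green leaf tissue that could be named, RCA, which encodes Rubisco activase, had group means between 14.1 and 14.4.

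QQS is an orphan gene, found in Arabidopsis with no recognisable relative in other plants, and it encodes a small protein that binds the transcription factor subunit NF-YC4. Plants with less QQS transcript build up more leaf starch, and plants with more of it hold less starch and more protein. APL4 encodes a large subunit of ADP-glucose pyrophosphorylase, the plastid enzyme that makes ADP-glucose and so commits carbon to starch. The enzyme joins large subunits, which tune its control by metabolites, to catalytic small subunits. APL1 is the main large subunit of leaves, and APL3 and APL4 are known mostly from tissues that import sugar, and from leaves given sugar.

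QQS stood higher in ACX than in WT on every array. In WT at 0 h the lowest, median and highest levels were 7.73, 8.21 and 8.75 on the log2 scale. In ACX at 0 h they were 9.39, 9.71 and 10.04. The groups did not overlap: the lowest ACX array lay above the highest WT array. At 1 h the WT arrays read 8.19, 8.23 and 8.30, and the ACX arrays 10.32, 9.97 and 10.02. The WT arrays at 1 h were the most tightly grouped of all QQS values (mean 8.24 ± 0.06, SD, n = 3). At 72 h the WT arrays read 8.40, 7.88 and 7.25, and the ACX arrays 9.55, 9.23 and 9.22. Here too all ACX arrays lay above all WT arrays, although the WT arrays were spread more widely than in any other group (SD 0.58).

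**Figure D1:**
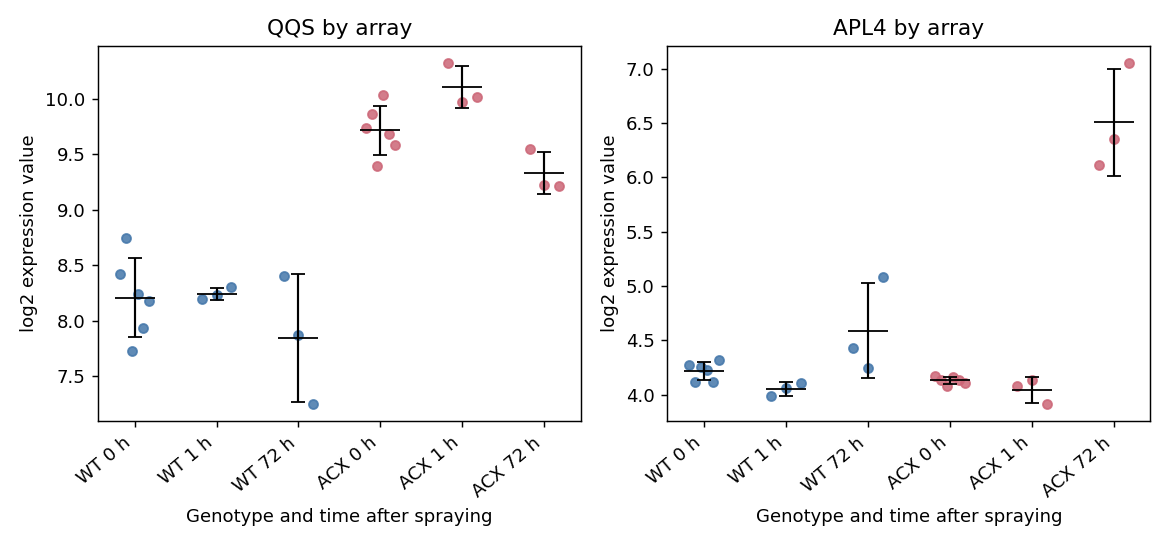
Log2 expression level (vertical axis) of QQS and of APL4 on each array, in the 6 groups of genotype and time; points are arrays, horizontal lines are group means and vertical bars are SDs between arrays (n = 6 at 0 h, 3 at 1 h and 72 h). All ACX arrays lie above all WT arrays for QQS, from 9.22 upward against 8.75 and below, and for APL4 the ACX 72 h arrays, from 6.11 to 7.05, lie above all others.

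The genotype difference of QQS lay between 1.49 and 1.86 at the 3 times. At 0 h QQS was higher in ACX by 1.51 ± 0.17 (log2 difference ± SE), 2.84-fold. Groups that did not overlap, with ACX higher, were found for 1.68% of all probe sets at 0 h, and QQS ranked 48 in size of increase among the 22746 tested. At 1 h the difference was 1.86 ± 0.24, 3.64-fold, which ranked 3 in a comparison where 5.91% of probe sets were higher in ACX without overlap. These values had picked the gene and are a description. The 72 h arrays had not: there QQS was higher in ACX by 1.49 ± 0.24, 2.80-fold, with an adjusted p of 0.00115 by limma, in all 3 ACX arrays against all 3 WT arrays. In that comparison 1.56% of probe sets were called higher and 9.62% were higher without overlap. Leaving out each array in turn gave differences of 1.19 to 1.77, with adjusted p between 0.000305 and 0.00895. The spread behind these p-values came from arrays of all 6 groups, with those at 0 h and 1 h that had picked QQS among them. When only the 72 h arrays were fitted, which leaves those out, the same difference had a limma adjusted p of 0.0821, short of the threshold of 0.05.

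The changes of QQS with time were small beside the genotype difference. In WT it differed by 0.03 ± 0.21 between 1 h and 0 h and by -0.37 ± 0.21 between 72 h and 0 h. The 72 h difference in WT was -0.07 without replicate 3, the lowest WT array. In ACX the differences were 0.39 ± 0.21 at 1 h and -0.39 ± 0.21 at 72 h, and the arrays overlapped with those at 0 h. From 1 h to 72 h QQS differed by -0.40 ± 0.24 in WT (-0.10 without WT 72 h replicate 3) and by -0.77 ± 0.24 in ACX. The ACX arrays at 72 h lay below those at 1 h without overlap, as 32.7% of all probe sets did. The change against 0 h in ACX minus that in WT was 0.35 ± 0.29 at 1 h and -0.02 ± 0.29 at 72 h, and the 72 h value was -0.32 without WT 72 h replicate 3 and 0.26 without replicate 1. Ordered by mean, the groups ran WT 72 h (7.84), WT 0 h (8.21), WT 1 h (8.24), ACX 72 h (9.33), ACX 0 h (9.72) and ACX 1 h (10.10). Neighbours in this order overlapped within each genotype, and the step of 1.09 between WT 1 h and ACX 72 h was the exception.

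APL4 gave low and even readings until 72 h. In WT at 0 h the lowest, median and highest log2 levels were 4.12, 4.24 and 4.32, and in ACX they were 4.08, 4.14 and 4.17. At 1 h the WT arrays read 3.98, 4.06 and 4.11 and the ACX arrays 4.08, 4.14 and 3.91. Each of these readings lay below the lower quartile of its own array, the low end of the scale, where RMA values tend to compress differences. At 72 h the WT arrays read 4.43, 4.25 and 5.08, of which replicate 3 stood above the other two. The ACX arrays at 72 h read 6.11, 6.35 and 7.05, all above every other array of the series.

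The high APL4 level at 72 h was seen in ACX. Because the readings it is set against lie at the low end of the scale, the sizes below may understate the change, and no fold is given. Against 0 h it was higher by 2.38 ± 0.16 (log2 difference ± SE), without overlap, as 23.5% of all probe sets were. Against 1 h it was higher by 2.46 ± 0.18, where 28.5% of probe sets were higher without overlap. In WT the difference between 72 h and 0 h was 0.37 ± 0.16, and it was 0.12 without replicate 3 and 0.54 without replicate 2. The WT arrays at 72 h lay above those at 1 h without overlap, by 0.54 ± 0.18, as 30% of probe sets did, and by 0.29 without replicate 3. ACX exceeded WT at 72 h by 1.92 ± 0.18, and the change from 0 h to 72 h was larger in ACX by 2.01 ± 0.22. Leaving out each array in turn moved the genotype difference at 72 h between 1.65 and 2.17 and the difference of the change between 1.73 and 2.26.

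**Figure D2:**
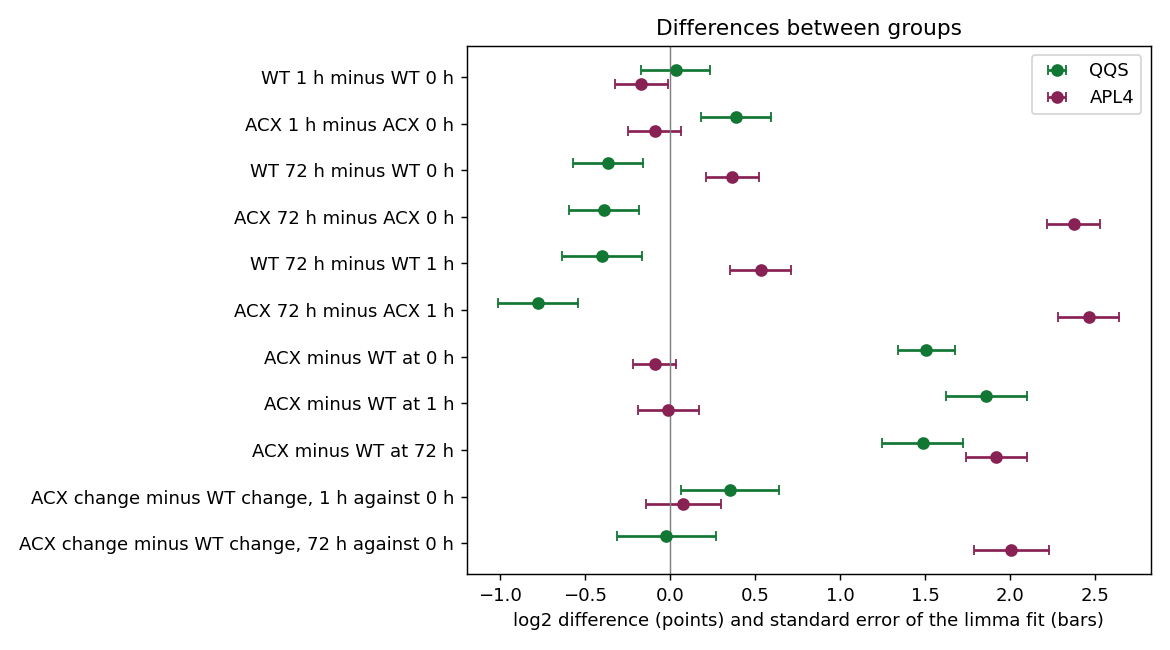
Log2 difference (horizontal axis, with bars of 1 standard error) of QQS and of APL4 in each of the 11 comparisons. QQS departs furthest from 0 in the comparisons of ACX with WT, between 1.49 and 1.86, and APL4 in those that involve ACX at 72 h, between 1.92 and 2.46.

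At 0 h and 1 h no difference in APL4 passed the test, in comparisons that had not been used to pick it. With every reading between 3.91 and 4.32, at the low end of the scale, a difference there was hardly detectable. ACX differed from WT by -0.09 ± 0.13 at 0 h (limma adjusted p = 0.799) and by -0.01 ± 0.18 at 1 h (adjusted p = 1.00). The 1 h arrays differed from the 0 h arrays by -0.17 ± 0.16 in WT (adjusted p = 0.495) and by -0.09 ± 0.16 in ACX (adjusted p = 0.770). In WT the 1 h arrays were nevertheless all below the 0 h arrays, as 15.1% of all probe sets were. The difference between the genotypes in the 1 h change was 0.08 ± 0.22 (adjusted p = 1.00). Ordered by mean, the groups ran ACX 1 h (4.04), WT 1 h (4.05), ACX 0 h (4.13), WT 0 h (4.22), WT 72 h (4.59) and ACX 72 h (6.51), and only the last step, of 1.92, separated neighbours without overlap.

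The values of QQS and APL4 can be set side by side. The genotype difference in QQS was already present at 0 h and was 1.49 at 72 h, whereas in APL4 none was detectable among the low readings at 0 h (-0.09) and it was 1.92 at 72 h. In ACX the differences between 72 h and 0 h were -0.39 for QQS and 2.38 for APL4, neither of them tested. Within WT at 72 h, replicate 3 had both the lowest QQS level (7.25) and the highest APL4 level (5.08). Over all probe sets that array was also nearest to the mean of the ACX 72 h arrays, with a correlation of 0.992 against 0.982 and 0.987 for replicates 1 and 2, and farthest from the mean of WT at 0 h, at 0.895 against 0.910 and 0.902. These 3 arrays share a group and a genotype, and the values are a description.

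Among the other subunits of ADP-glucose pyrophosphorylase only APL3, a large subunit like APL4, could be named, so that 2 of 6 subunit genes could be read. For the rest the annotation used gives no probe set of their own, which does not mean that the array lacks one. APL3 fell at 1 h in WT and rose at 72 h in both genotypes. Its WT levels at 0 h had a lowest, median and highest value of 6.10, 7.11 and 7.42, and those in ACX 5.80, 6.31 and 6.51. At 1 h the WT arrays read 6.30, 5.73 and 5.43 and the ACX arrays 5.40, 5.66 and 5.55. At 72 h the WT arrays read 8.48, 8.39 and 9.23 and the ACX arrays 9.53, 9.42 and 9.56, so that both groups were above all earlier arrays of either genotype and ACX was above WT. The difference between 1 h and 0 h was -1.11 ± 0.26 in WT (limma adjusted p = 0.00243) and -0.66 ± 0.26 in ACX (adjusted p = 0.0672). The rise from 0 h to 72 h was 1.77 ± 0.26 in WT (adjusted p = 4.27e-06) and 3.31 ± 0.26 in ACX (adjusted p = 3.29e-10).

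APL3 rose further in ACX than in WT by 1.53 ± 0.36 (limma adjusted p = 0.0140). APL4 was at 2.01, but the 72 h arrays had picked it, so its order is a description and adds no support. The call for APL3 depended on single arrays: it was 1.42 (adjusted p = 0.0538) without WT 72 h replicate 1 and 1.38 (adjusted p = 0.0532) without WT 72 h replicate 2. With the 0 h replicates 1 to 3 alone it was 0.94 (adjusted p = 0.122). At 0 h APL3 was lower in ACX by 0.73 ± 0.21 (adjusted p = 0.0357), with overlapping groups, and this difference was -0.13 (adjusted p = 0.760) with the 0 h replicates 1 to 3 alone. At 72 h itself ACX exceeded WT by 0.80 ± 0.30 (adjusted p = 0.181), which did not pass (adjusted p = 0.0435 with array weights).

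**Figure D3:**
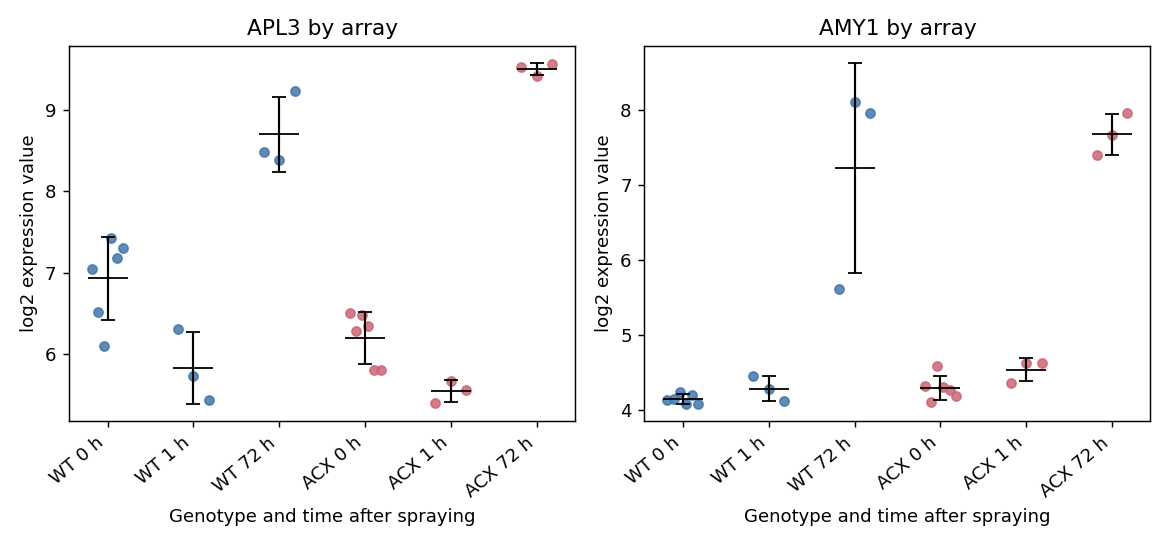
Log2 expression level (vertical axis) of APL3 and of AMY1 on each array in the 6 groups of genotype and time; points are arrays, horizontal lines are group means and vertical bars are SDs between arrays. Both genes read highest at 72 h, where APL3 lies between 8.39 and 9.56 and AMY1 between 5.62 and 8.11.

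Of the genes listed for starch making, starch breakdown and sucrose metabolism, 11 of 59 could be named on the array, so most of the pathway was not read here. At 1 h in WT 1 of the 11 rose and 6 fell, with a median log2 difference of -0.39 beside -0.02 over all probe sets, of which 11% were called higher and 15.6% lower. In ACX 0 rose and 3 fell, with a median of -0.27, where 10.9% of probe sets were called higher and 12.7% lower. Counts of calls in the 2 genotypes are not a test of a difference, and 0 of the 11 passed the test of the difference itself (2 at an unadjusted p under 0.05, with 0.145% of all probe sets called).

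On the starch making list, SBE2.2, a starch branching enzyme, fell at 1 h by 0.52 in WT and by 0.41 in ACX (limma adjusted p = 0.00607 and 0.0311). AT3G55760 fell by 0.65 in WT (adjusted p = 6.60e-05), and AT5G03420 fell by 0.64 in WT (adjusted p = 0.0242). AT5G39790 rose by 0.39 in WT (adjusted p = 0.0284) and fell by 0.35 in ACX (adjusted p = 0.0482), and was the only one of the 11 called in opposite directions. The annotation used here gives those 3 loci no symbol. Several of these calls rested on single arrays: without WT 1 h replicate 1 AT5G39790 was at 0.24 (adjusted p = 0.261) and AT5G03420 at -0.49 (adjusted p = 0.167). The ACX call of AT5G39790 was lost without any 1 of 8 arrays, and that of SBE2.2 without any 1 of 4 (-0.28, adjusted p = 0.2504, without ACX 1 h replicate 3). In sucrose making, ATSPS4F, a sucrose phosphate synthase, fell by 1.04 in WT and fell by 1.11 in ACX at 1 h (adjusted p = 0.00474 and 0.00290). APL4, which is not 1 of the 11, did not pass either, with -0.17 in WT and -0.09 in ACX.

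At 72 h the 11 genes were divided. In WT 3 rose and 3 fell against 0 h, with a median of 0.00, and in ACX 5 rose and 3 fell, with a median of 0.24. In these comparisons 26.4% and 26.3% of probe sets were called higher and 27% in each were called lower, with a median of -0.06 in both. The counts are near these shares, except that the 5 rises of 11 in ACX are more than the share called higher. Whether the list departs from all probe sets was not tested. AMY1 is on the starch breakdown list as an alpha-amylase, a type of enzyme that cuts starch chains. Whether its protein acts on leaf starch cannot be read from RNA levels. AMY1 rose by 3.08 ± 0.32 in WT (limma adjusted p = 4.26e-08) and by 3.38 ± 0.32 in ACX (adjusted p = 9.48e-09). Its WT 72 h arrays read 5.62, 8.11 and 7.96 and its ACX arrays 7.41, 7.67 and 7.96, against group means of 4.15 to 4.54 at 0 h and 1 h. Replicate 1 of WT stood low, and without it the WT rise was 3.88. The rise of AMY1 was not called different between genotypes (0.30 ± 0.46, adjusted p = 0.843), and this difference was -0.51 without WT 72 h replicate 1.

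Other genes on the starch breakdown list moved less. PWD, the phosphoglucan water dikinase that phosphorylates starch granules, rose by 0.51 in ACX (limma adjusted p = 0.0127; 0.0551 and 0.0742 without ACX 72 h replicate 1 or 3) and differed by 0.21 in WT (adjusted p = 0.278). DPE1, a plastid enzyme that rearranges short glucan chains, fell by 0.90 in WT and by 0.59 in ACX (adjusted p = 2.08e-05 and 0.00194). On the starch making list, AT5G39790 fell by 1.58 in WT and by 1.45 in ACX (adjusted p = 7.37e-10 and 2.59e-09), SBE2.2 fell by 0.56 in WT (adjusted p = 0.00137), and AT5G03420 and AT3G55760 rose in ACX by 0.83 and 0.52 (adjusted p = 0.00165 and 0.000230). ATSPS4F fell by 1.24 in ACX (adjusted p = 0.000361). Set against 1 h in place of 0 h, 6 of the 11 rose and 2 fell in WT, and 4 rose and 2 fell in ACX, where 25.2% and 24.4% (WT) and 23.6% and 22.6% (ACX) of all probe sets were called higher and lower.

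**Figure D4:**
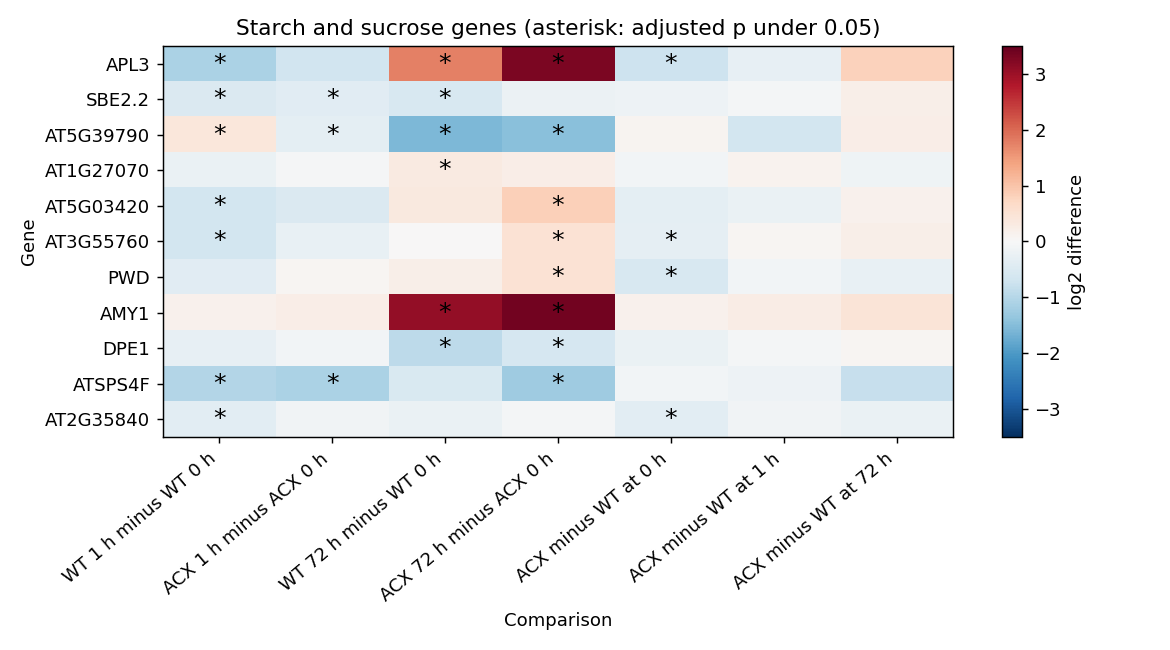
Log2 difference (colour, red for higher in the group named first and blue for lower) of the 11 measured starch and sugar genes (rows) in the changes against 0 h and the comparisons of ACX with WT (columns); an asterisk marks an adjusted p under 0.05. APL3 and AMY1 have the strongest red, 3.31 and 3.38 in ACX at 72 h, and the asterisks between genotypes are those of the 4 genes lower in ACX at 0 h.

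Between genotypes, with 6 arrays a group at 0 h and 3 at 1 h and 72 h, the counts of calls are not comparable over time. At 0 h 4 of the 11 were lower in ACX and 0 higher, with a median of -0.24, in a comparison that called 3.46% of probe sets higher and 3.89% lower. The 4 were APL3 (-0.73), PWD (-0.55, limma adjusted p = 0.0142), AT2G35840 (-0.38, adjusted p = 0.0272) and AT3G55760 (-0.32, adjusted p = 0.0229). QQS was at 1.51 there, a value that had picked it, so its direction beside these genes is a description. The APL3 call was lost without any 1 of WT 0 h replicates 1, 4, 5 and 6 or ACX 0 h replicates 2, 5 and 6 (-0.63 to -0.74). The AT2G35840 call was lost without any 1 of WT replicates 4 and 6 or ACX replicates 3 and 6 (highest adjusted p = 0.0730), and that of AT3G55760 without WT replicate 1 or ACX replicate 6 (highest adjusted p = 0.0668). The count was 2 with either set of 3 arrays at 0 h in place of all 6, but of different genes. With replicates 1 to 3, APL3, PWD (-0.37, limma adjusted p = 0.183) and AT2G35840 (adjusted p = 0.123) were lost. DPE1 was called there instead (-0.56, adjusted p = 0.0252). With replicates 4 to 6, AT2G35840 (adjusted p = 0.0761) and AT3G55760 (-0.16, adjusted p = 0.316) were lost. Each of the 4 calls was thus lost with at least 1 of the sets. At 1 h and at 72 h 0 of the 11 were called between genotypes by limma, with 1 and 2 of them at an unadjusted p under 0.05, and 0.0352% and 2.79% of all probe sets called. Single differences there were as large as at 0 h: AT5G39790 was at -0.63 at 1 h (adjusted p = 0.245), and at 72 h APL3 was at 0.80 and ATSPS4F at -0.80 (adjusted p = 0.197). For the 72 h change, APL3 and AT3G55760 (0.51, adjusted p = 0.0396) rose further in ACX, 2 of 11, where 3.1% of probe sets were called higher and 2.89% lower. The AT3G55760 call was lost when any 1 of 10 arrays was left out, with adjusted p up to 0.152 (without ACX 72 h replicate 3).

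AKINBETA1, a regulatory beta subunit of the energy-sensing kinase SnRK1, was the only one of the 9 genes listed for SnRK1, the QQS partner and sugar starvation that could be named. It was higher in ACX than in WT at 0 h by 1.097 (limma adjusted p = 0.0133). That call was lost when only the 0 h arrays were fitted (adjusted p = 0.0617) and with the 0 h replicates 1 to 3 alone (0.74, adjusted p = 0.200). In WT it rose by 1.32 by 72 h (adjusted p = 0.00155), and in ACX it differed by -0.45 (adjusted p = 0.244). The change was lower in ACX by 1.77 ± 0.46 on the log2 scale (-1.77, adjusted p = 0.0237), a call lost without any 1 of WT 72 h replicates 1 and 2 and ACX 72 h replicates 1 and 3 (adjusted p up to 0.0855) and with the 0 h replicates 1 to 3 alone (-1.42, adjusted p = 0.116). QQS transcript is also known to vary with DNA methylation at its locus. Of 12 genes of DNA methylation, DME, which encodes a DNA glycosylase that removes methylated cytosine, could be named, and it has 3 probe sets. Its brightest probe set on average fell at 72 h by 0.56 in WT and by 0.72 in ACX (limma adjusted p = 0.00243 and 0.000244). The others did not share this in WT: they were at 0.00 and -0.14 there (adjusted p = 0.977 and 0.285) and at -0.33 and -0.15 in ACX (adjusted p = 0.0197 and 0.239). The brightest one differed between genotypes by -0.08 at 0 h, -0.05 at 1 h and -0.24 at 72 h, none of which passed.

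The named guard cell and trichome markers fell at 72 h in both genotypes, by amounts that are given below. Against 0 h, RCA differed at 72 h by 0.04 in WT and 0.05 in ACX. The root gene PYK10 differed by 0.08 and -0.97, and neither gene was called. In these leaf samples, fewer cells of a type and less RNA per cell cannot be told apart. Of the 5 guard cell markers AT1G22690 and FMA, a regulator of guard cell formation, could be named, and both fell at 72 h in both genotypes. AT1G22690 fell by 3.58 in WT and by 5.54 in ACX, and FMA by 0.40 and 0.88. FMA in WT was at -0.14 (limma adjusted p = 0.329) without replicate 3 at 72 h. The log2 of their summed level ranged from 9.85 to 11.3 over the 0 h arrays, from 6.70 to 8.30 in WT at 72 h and from 6.68 to 6.94 in ACX at 72 h. TRY, the 1 trichome gene named of 3, fell by 2.85 in WT and fell by 2.55 in ACX, and its levels at 72 h were 5.00 to 5.35 in WT and 4.76 to 5.00 in ACX. The change of AT1G22690 was lower in ACX than in WT (-1.97, limma adjusted p = 0.0118; -1.68 and 0.0537 without ACX 72 h replicate 3). At 72 h itself none of the 5 named markers passed between ACX and WT, with AT1G22690 at -0.97 (adjusted p = 0.199) and RCA at 0.04 (adjusted p = 0.927). This rested on WT 72 h replicate 3: without it AT1G22690 was lower in ACX by 1.51 on the log2 scale (-1.51, limma adjusted p = 0.00922) and FMA was at -0.64 (adjusted p = 0.00575), and APL4 was at 2.17. Without WT 72 h replicate 1 AT1G22690 was at -0.33. WT 72 h replicate 3, the array with the highest APL4, had the lowest AT1G22690 and FMA levels of its group, 5.40 and 5.94. PYK10, the 1 root gene named of 3, differed by -0.17 between the genotypes at 72 h. The part of these tissues in the APL4 result was not tested. Beside the QQS difference, AT1G22690 was higher in ACX at 0 h by 1.00 (limma adjusted p = 0.0215). The limma adjusted p was 0.0508 without WT 0 h replicate 2, and 0.0593 and 0.213 with 0 h replicates 1 to 3 and 4 to 6. FMA was not called there, with group means of 6.85 in WT and 6.95 in ACX. The summed guard cell level at 0 h mostly restates AT1G22690, whose group means were 10.05 and 11.05. This sum ranged from 9.85 to 10.7 in WT and from 10.99 to 11.3 in ACX. At 1 h these ranges were 10.5 to 10.8 and 10.4 to 10.9. The part of guard cells in the QQS result was not tested.

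Over the 24 arrays, and 13512 other probe sets with 1 named gene, the 5 highest Pearson correlations were with AT5G26270 (0.66), AT2G35310 (0.65), AT2G30740 (0.64), AT3G29210 (0.63) and AT2G30600 (0.61). AT2G30600 averaged 7.35 in WT and 9.18 in ACX at 0 h, and 6.58 and 6.61 at 72 h, so that its genotype difference, unlike that of QQS, was small at 72 h. AT2G30740 averaged 6.17, 6.47 and 6.33 in WT at 0 h, 1 h and 72 h and 6.88, 7.18 and 6.84 in ACX, and over the 6 group means its correlation with QQS was 0.95, the highest found. Within groups, with group means subtracted, its correlation with QQS was -0.35. Those of AT5G26270 and AT2G30600 were -0.24 each, and those of AT2G35310 and AT3G29210 were 0.36 and 0.47. The probe set of AT3G29210 is of a kind that can bind more than 1 transcript. The 24 arrays fall into 6 groups of genotype and time whose differences enter the correlations over all arrays, so these are a description.

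For APL4 the 5 highest correlations were with AT5G45690 and AT5G66780 (0.96 each), AT5G04380 (0.96), AT1G28650 (0.95) and AT4G37220 (0.94). All 5 were highest in ACX at 72 h: AT5G45690 averaged 4.55 in WT and 4.58 in ACX at 0 h, then 5.85 and 8.31 at 72 h, and AT5G66780 averaged 4.09 and 4.17, then 5.18 and 7.19. Without the 3 ACX 72 h arrays the correlations were 0.84, 0.82, 0.72, 0.75 and 0.67, a step added after the data were seen, and those of the 5 genes most like QQS were 0.69, 0.81, 0.63, 0.70 and 0.76. Without these arrays the correlations of both sets overlapped. By ranks, which give the low readings equal weight, the most like gene was TMT2, which encodes a sugar transporter of the vacuole membrane (Spearman 0.91, named after its values were seen). TMT2 averaged 7.58, 6.66 and 8.36 in WT and 7.17, 6.58 and 9.21 in ACX at 0 h, 1 h and 72 h.

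**Figure D5:**
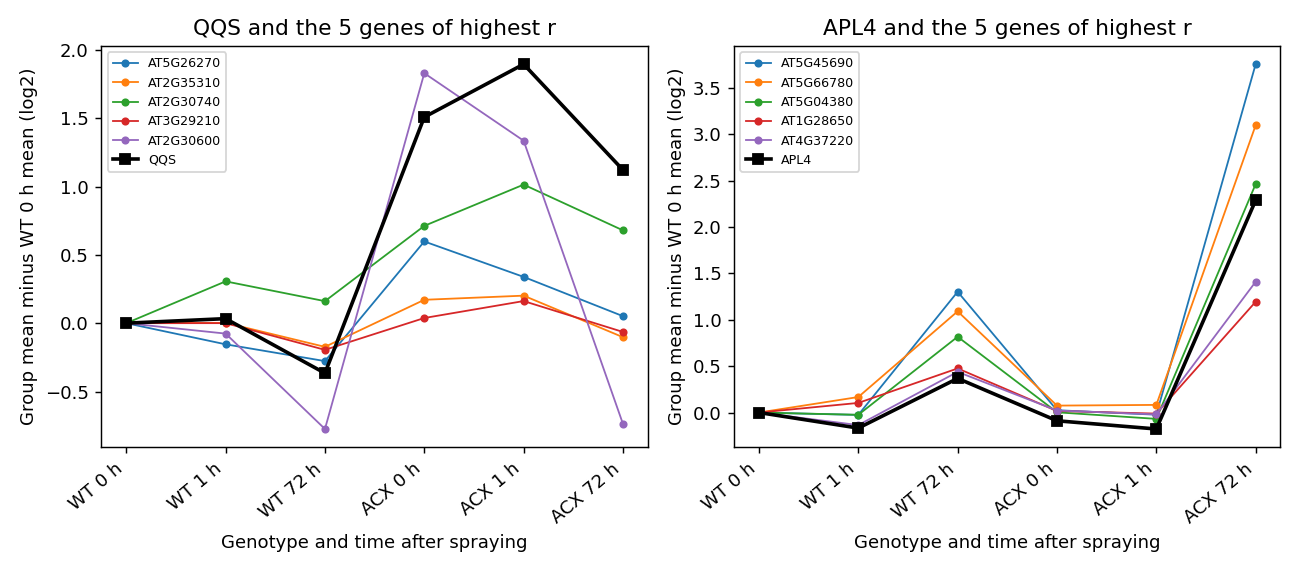
Log2 group mean minus the WT 0 h mean (vertical axis) of QQS and APL4 (black) and of the 5 genes most like each of them (colours), in the 6 groups of genotype and time (horizontal axis); lines only join the points of a gene. APL4 and the genes like it are all highest in ACX at 72 h, and of the genes like QQS the level of AT2G30600 departs from it at 72 h, averaging 6.61 in ACX at 72 h against 9.18 at 0 h.

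Neighbouring genes were read for description, with no test. AT3G30730, the gene 2 positions beyond QQS in the RefSeq gene order, differed between ACX and WT by 0.01 at 0 h, -0.12 at 1 h and 0.05 at 72 h. bZIP42, 4 positions before QQS, differed by 0.02, 0.05 and 0.03. AT3G30460, 7 positions before QQS, was lower in ACX at 0 h (-0.56) and differed by 0.03 at 1 h and -0.22 at 72 h. Beside APL4, the nearest gene before it, AT2G21580, differed between 72 h and 0 h by -0.92 in WT and -0.25 in ACX. Its change in ACX minus that in WT was 0.67, the same genotype order as for APL4. The next measured, AT2G21560, was higher at 72 h by 3.42 in WT and by 2.54 in ACX, so that its genotype order was opposite to that of APL4. RD2, 4 positions beyond APL4, was higher at 72 h by 1.85 in WT and by 2.055 in ACX.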

How the data were processed

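The deposited table holds 1 log2 expression value for each of 22810 probe sets on 24 arrays, deposited by the authors. Per the submitters' processing notes RMA produced them; limma is named too, and no version is given. The values were used unscaled and unfiltered. After 64 Affymetrix controls were left out, 22746 probe sets were tested, of which 13513 carry 1 gene in the 2016 platform annotation, 503 several and 8730 none listed. limma 3.58.1 in R 4.3.3 fitted 1 mean per group over all 24 arrays (18 residual and 3.23 prior degrees of freedom), with two-sided p-values adjusted by Benjamini-Hochberg within each of 11 comparisons. The 2 genes and the gene lists were chosen with earlier results of these data known; the comparison that picked APL4 was worked out by applying the earlier naming rule to the values, and no p is printed where a group had served to pick a member. Other scalings, a filter, other priors and weights, the replicate block, subsets of the 0 h arrays and leaving out each array were tried. Besides the members, the text names measured subunit genes, up to 4 genes of a list and comparison by smallest adjusted p, markers, and the 5 genes most like each member; the neighbours of the members, TMT2 and further values of these genes were added after values were seen. On simulated data over 22746 probe sets, 84% of 2-fold and 98% of 4-fold changes were recovered for ACX against WT at 72 h. Of the calls there 6.19% were false. For the difference of the 72 h change, 75% of 2-fold changes were recovered. The simulation gave each probe set the same spread in all groups. QQS was spread more widely in WT at 72 h than elsewhere, so recovery in such a case may be lower. The number of arrays limits the precision.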

Additional observations from a re-analysis of the deposited data

Results flagged for a closer look

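On the 0 h arrays, 40 groups of 6 (20 genes in each genotype) were examined for 1 array far from the rest, a criterion that chance meets in about 1 group in 20. QQS and APL4 had no such array. Among the starch genes, AT5G03420 read 6.43 in ACX replicate 6, where the nearest other array read 7.17. AT3G55760 read 6.42 in ACX replicate 4, with the next at 6.27. DPE1 read 5.31 in ACX replicate 3, with the next at 5.64. The trichome gene TRY read 6.70 in WT replicate 3, with the next at 8.25.

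Of the 20 genes examined, QQS and APL4 were left out of the next criterion. For 4 of the rest, the change from 0 h to 72 h differed between ACX and WT by the limma test of the difference. They were APL3 (1.53), AT3G55760 (0.51), AKINBETA1 (-1.77) and the guard cell marker AT1G22690 (-1.97). Positive values mean a change further upward in ACX. Over all probe sets 3.1% were called higher and 2.89% lower. Each of the 4 calls was lost without single arrays: any 1 of 2 arrays for APL3, of 10 for AT3G55760 and of 4 for AKINBETA1, and 1 array for AT1G22690.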

How the results depend on the processing

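QQS and APL4 kept the direction of every difference called or described as high across the alternatives run. The QQS difference at 72 h missed the threshold when only the groups compared were fitted (1.49, adjusted p = 0.0821), and passed in the other 13 of 14. The fit that missed was the 1 without the arrays that had picked QQS. With the replicate block its adjusted p was 0.00138. Leaving out 1 array gave APL4 ranges of 0.12 to 0.54 (WT 72 h against 0 h), 0.29 to 0.71 (WT 72 h against 1 h), 2.102 to 2.57 (ACX 72 h against 0 h), 2.19 to 2.66 (ACX 72 h against 1 h), 1.65 to 2.17 (ACX against WT at 72 h) and 1.73 to 2.26 (difference of the 72 h change). APL4 is not in the fit without the lowest 25% of probe sets.

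The counts of the 11 starch and sugar genes were less stable. For ACX at 1 h the count of 3 became 1 with arrays centred on their medians, 6 with array weights and 1 with 0 h replicates 4 to 6. For ACX against WT at 0 h the count of 4 became 2 when only the groups compared were fitted and with either set of 0 h arrays. With array weights the counts for ACX against WT at 1 h and 72 h and for the difference of the 1 h change each became 1 in place of 0. For the difference of the 72 h change the count of 2 became 1 with centring, quantile normalization, only the groups compared, the trended and robust prior, the replicate block and either set of 0 h arrays. Leaving out 1 array gave 4 to 8 for WT at 1 h (4 without WT 1 h replicate 1), 1 to 4 for ACX at 1 h, 1 to 4 for ACX against WT at 0 h (1 without ACX 0 h replicate 6) and 0 to 2 for the difference of the 72 h change. Of 67 calls of listed genes, 27 were lost in at least 1 alternative; the cause was not tested.

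No label says that a replicate number stands for a batch or day, and in none of the comparisons did every pair of arrays with 1 number correlate above 0.1. The replicate block lost 10 and gained 2 calls of listed genes, and in WT at 1 h and 72 h against 0 h every array correlated best with its own number. Centring moved the median of all probe sets at 72 h from -0.06 to -0.21 in WT and to -0.20 in ACX against 0 h. The calls higher and lower went from 6007 and 6146 to 4948 and 10521 in WT, and from 5980 and 6135 to 5007 and 10012 in ACX. Against 1 h they went from 5736 and 5557 to 4316 and 10451 in WT, and from 5374 and 5135 to 4199 and 9218 in ACX. Of the 5 genes most like QQS, 1 was shared with the 5 by Spearman's rho and 1 with the 5 by group means; of those most like APL4, 0 and 0 were shared.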
